A study of Danio rerio with 116 samples.

Results

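In zebrafish most CG dinucleotides outside CpG islands and active promoters carry methylation, and germ cells keep a highly methylated genome while they migrate and settle in the gonad. Methylation averaged over windows of 1 Mb therefore describes the bulk of the genome and not single genes or promoters. The windows described here are those in which methylation in germ cells of young fish lay lowest relative to that in other cells. In most of the genome it was higher in germ cells. Of 1353 non-overlapping 1 Mb windows on chromosomes 1 to 25, 1350 had at least 100 CG calls both in the merged EGFP+ libraries and in the merged EGFP- libraries of 1 to 28 days post fertilisation (dpf). The 200 of these with the lowest difference in percentage of methylated calls (EGFP+ minus EGFP-) are called member windows, and the remaining 1150 are called other windows. A stretch of 17388 bp near the right end of chromosome 4, which holds ribosomal DNA, was left out.

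The calls came from 116 low-coverage whole genome bisulfite libraries, 59 of EGFP+ cells and 57 of EGFP- cells sorted from zebrafish of the line Tg(vasa:EGFP), in which the promoter of the germline gene vasa drives EGFP and which all groups carried. The 29 EGFP+ and 27 EGFP- libraries of 1 to 28 dpf came from pools of 10 fish of both sexes at 9 ages, and chose the member windows. At 35, 40, 45, 50 and 70 dpf each library came from 1 presumptive female or male, which gave 15 EGFP+ and 15 EGFP- libraries of each sex, 3 at each age, and none of these entered the choice. Whole fish were dissociated up to 14 dpf and the dissected gonadal region after that, so that the EGFP- cells, which the labels call whole embryo cells at all ages, were mixed cells without the transgene signal and changed in origin with age, and the strainer used before sorting left out large oocytes. Because the data are methylation calls, the identity of the sorted cells could not be checked against marker genes here. No genome or gene annotation of the build of these positions (GRCz10 in the submitters' processing notes) was used, so windows are given by position only.

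Libraries held 7495 to 159817 calls outside the excluded stretch, with a median of 21972.5, and a single library had a median of between 4 and 115 calls in a member window. Member windows were therefore compared as a set within each library, and single windows only in merged libraries or in a model over libraries. Intervals and errors from calls cover counting error only.

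At 1 to 28 dpf, the values that chose them, member windows had 72.7% methylated calls in the merged EGFP+ libraries and 79.1% in the merged EGFP- libraries. Other windows had 80.4% in EGFP+ and 77.5% in EGFP-. The difference of a member window (EGFP+ minus EGFP-) lay between -14.7 and -3.46 percentage points with a median of -5.79, against a median of 2.54 in other windows and 1.74 in all 1350. In all, 479 of 1350 windows, or 35.5%, had a difference below 0, and the members are the 200 lowest of these. At that limit the last members differed by -3.51 (chr8:15000001-16000000), -3.46 (chr6:10000001-11000000) and -3.46 (chr8:24000001-25000000). The first windows beyond it differed by -3.42 (chr10:22000001-23000000), -3.41 (chr2:19000001-20000000) and -3.40 (chr7:22000001-23000000).

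The spread of these differences was close to what counting alone gives. Over the 1350 windows the differences at 1 to 28 dpf had an SD of 4.90 percentage points, and their root mean square counting error, with the calls of a read kept together, was 4.89 percentage points. Merged windows held medians of 445 EGFP+ and 645 EGFP- calls. Member windows had a median counting error of 5.28 percentage points, against 4.61 in other windows.

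**Figure D1:**
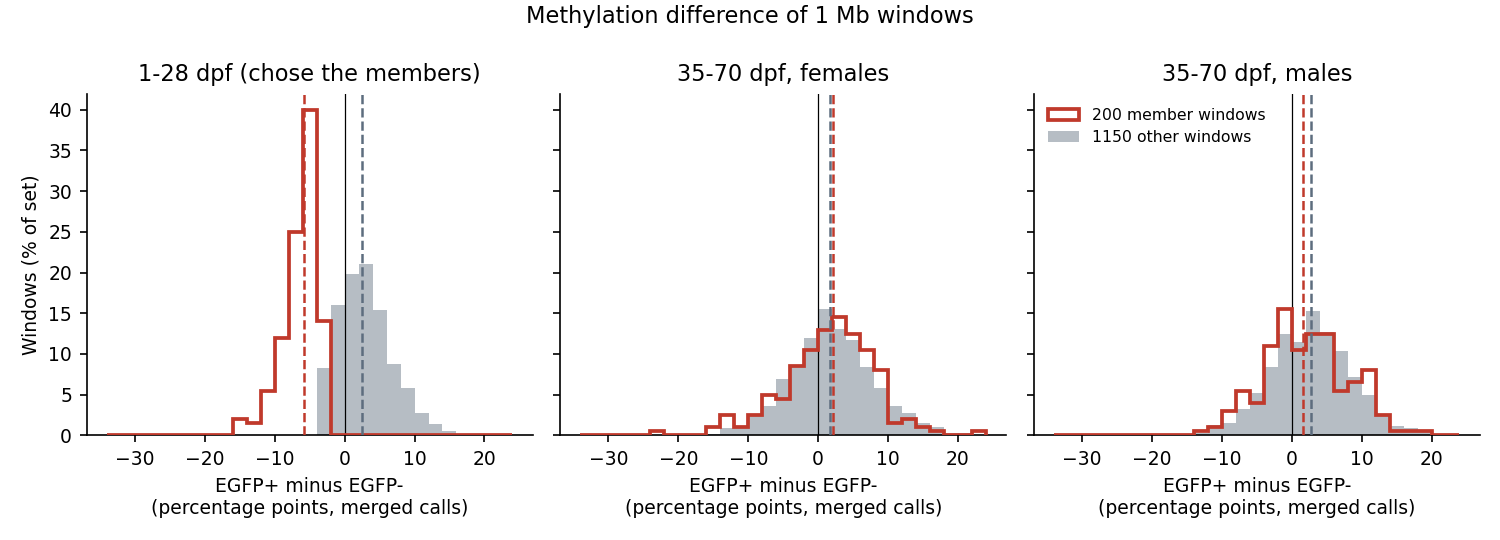
Histograms of the methylation difference of 1 Mb windows (EGFP+ minus EGFP-, merged calls, percentage points) as a percentage of the 200 member windows (red line) and of the 1150 other windows (grey), at 1-28 dpf, in females of 35-70 dpf and in males of 35-70 dpf, with medians as dashed lines. The sets lie apart at 1-28 dpf because that difference defined them, and overlap at 35-70 dpf, where the medians of members were 2.19 in females and 1.65 in males, against 1.76 and 2.80 in other windows.

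The members' low value in EGFP+ cells was present at each young age, as its use in the choice makes likely. The percentage in member windows minus that in other windows, taken within each library, was negative in 29 of 29 EGFP+ libraries and 3 of 27 EGFP- libraries of 1 to 28 dpf. Its mean was -7.26 ± 2.50 (SD, n = 29) in EGFP+ and 1.87 ± 1.36 (SD, n = 27) in EGFP- libraries. By age, the EGFP+ mean was nearest to 0 at 1 dpf, with -2.61, against 2.27 in EGFP-, and farthest at 7 dpf, with -9.80, against 1.37 in EGFP-. These values are a description and carry no test. The merged values that chose the members were weighted unevenly over ages. Libraries of 2 dpf gave 17.0% of the merged EGFP+ calls and 36.8% of the merged EGFP- calls.

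In the libraries of 35 to 70 dpf, which the choice did not use, no difference between EGFP+ and EGFP- cells in member minus other windows passed the test, in females or in males. In females, member minus other windows ranged over -4.53, -1.54 and 1.70 percentage points (lowest, median and highest) in EGFP+ libraries, against -4.09, -1.42 and 0.171 in EGFP- libraries. The groups overlapped, with 2 EGFP+ libraries above and 1 below all EGFP- libraries, and the means were -1.52 ± 1.63 and -1.75 ± 1.45 (SD, n = 15 each). EGFP+ minus EGFP- was 0.236 percentage points, with a 95% interval of -0.965 to 1.44 (two-sided permutation test, labels exchanged within ages, p = 0.689, adjusted p = 0.689 over 7 tests), and was above 0 at 4 of 5 ages.

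In males the same measure was -8.59, -2.05 and 1.73 in EGFP+ libraries, against -3.75, -1.42 and 0.915 in EGFP- libraries. The means were -2.32 ± 2.23 and -1.39 ± 1.21 (SD, n = 15 each). The difference was -0.934 percentage points, with an interval of -2.37 to 0.439 (two-sided permutation test, p = 0.205, adjusted p = 0.363), and lay below 0 at 5 of 5 ages, from -2.47 at 40 dpf to -0.110 at 70 dpf. The lowest value belonged to a single library of EGFP+ cells from a male of 35 dpf (replicate C, sequenced on another run than the other libraries of its age and sex), whose member windows held 67.0% methylated calls where replicates A and B held 87.3% and 84.9%. Without it the difference was -0.305 percentage points (permutation test, p = 0.564). The merged difference of 1 to 28 dpf was -9.34 percentage points, a size set by the choice of the lowest windows and computed from merged calls, so it is no measure for the values of 35 to 70 dpf.

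The sexes were not told apart. Female minus male was 1.17 percentage points for this measure, with an interval of -0.640 to 3.13 (two-sided permutation test, labels of sex exchanged within age and kind of cell, p = 0.207, adjusted p = 0.363). Without replicate C of EGFP+ males at 35 dpf it was 0.541 (permutation test, p = 0.480).

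**Figure D2:**
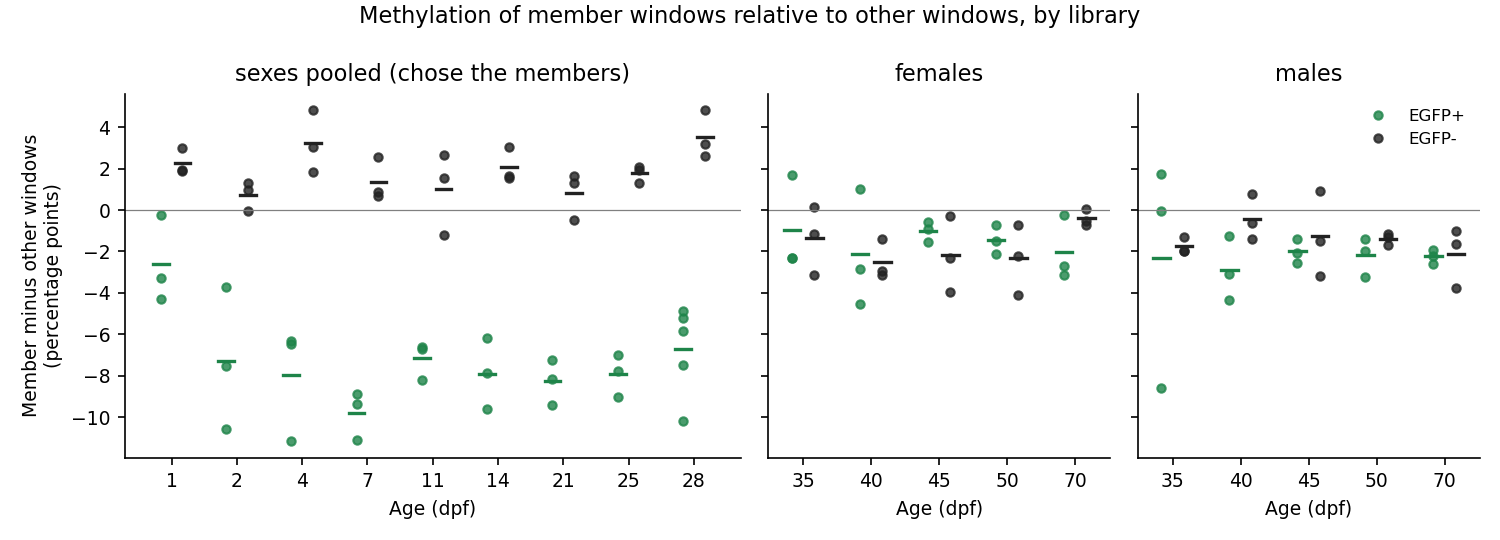
Percentage of methylated calls in member windows minus that in other windows (percentage points), with 1 point per library and a line at the group mean, for EGFP+ (green) and EGFP- (black) cells by age. At 1-28 dpf, the libraries that chose the members, the groups are apart and all 29 EGFP+ libraries lie below 0, as that choice makes likely. The groups overlap at each age from 35 to 70 dpf in females and males, which the choice did not use.

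The mean level of member windows was higher in EGFP+ than in EGFP- cells at 4 of 5 late ages in each sex, and neither sex passed the threshold after adjustment. In females, member windows held 73.9%, 78.1% and 82.9% methylated calls (lowest, median and highest) in EGFP+ libraries, against 70.6%, 74.6% and 81.0% in EGFP- libraries. The means were 78.1% ± 2.69 and 75.4% ± 2.96 (SD, n = 15 each), a difference of 2.74 percentage points with an interval of 0.584 to 4.90 (permutation test, p = 0.0153, adjusted p = 0.107), higher in EGFP+ at 4 of 5 ages. Without replicate A the difference was 2.42 (permutation test, p = 0.0959), and without replicate C it was 2.37 (permutation test, p = 0.0723). Other windows differed by 2.51 percentage points in the same libraries, with an interval of 0.597 to 4.41. Without 70 dpf, member windows of females differed by 4.61 percentage points (permutation test, p = 1.0e-04, not adjusted), and other windows by 3.90.

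In males, member windows held 67.0%, 75.8% and 87.3% in EGFP+ libraries, against 72.2%, 75.0% and 77.7% in EGFP- libraries. So 1 EGFP+ library lay below all EGFP- libraries, and several lay above all of them. The means were 77.5% ± 4.95 and 75.0% ± 1.69 (SD, n = 15 each), and the difference was 2.45 percentage points with an interval of -0.400 to 5.20 (permutation test, p = 0.0928, adjusted p = 0.325). Without replicate C of EGFP+ males at 35 dpf the difference was 3.73 (permutation test, p = 0.00205). Within sequencing runs that held both kinds of cell at an age, which kept 11 EGFP+ and 14 EGFP- libraries of each sex, it was 4.83 in males (permutation test, p = 0.00135) and 3.32 in females (permutation test, p = 0.0124). Replicate C of EGFP+ males at 35 dpf was again left out there, so the male value is no separate check from the one before. Other windows differed by 3.39 percentage points in males, with an interval of 1.36 to 5.40. Among the male ages, member and other windows lay farthest apart at 40 dpf, where they differed by 2.65 and 5.12 percentage points. This age is named for its size, and its 3 EGFP+ and 3 EGFP- libraries overlapped in both sets of windows.

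Females of 70 dpf went the other way. Member windows held 75.9%, 73.9% and 74.6% methylated calls in the 3 EGFP+ libraries, against 81.0%, 79.0% and 78.7% in the 3 EGFP- libraries, all on 1 sequencing run. The groups did not overlap, EGFP+ being lower, while at 40 and 45 dpf they did not overlap with EGFP+ higher. EGFP+ minus EGFP- was -4.72 percentage points at 70 dpf and 4.61 over 35 to 50 dpf, a difference of -9.33 between these ages (exact two-sided permutation test of age within kind of cell, chosen after the values were seen, p = 3.38e-05, adjusted p = 0.000203 over 6 such tests). Other windows changed by -6.97 percentage points between the same ages (exact permutation test, adjusted p = 0.00126), and member minus other windows by -2.36 (exact permutation test, p = 0.0935, adjusted p = 0.187). In males the change in member windows was -1.15 (exact permutation test, adjusted p = 0.746). Both kinds of cell changed in females. EGFP- means were 75.8%, 73.4%, 74.1% and 74.0% at 35, 40, 45 and 50 dpf, and 79.5% at 70 dpf. EGFP+ means were 79.0%, 78.0%, 81.8% and 77.0%, and 74.8% at 70 dpf. Most female libraries of 35 to 50 dpf were on other sequencing runs than those of 70 dpf. Age and run therefore cannot be told apart here.

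**Figure D3:**
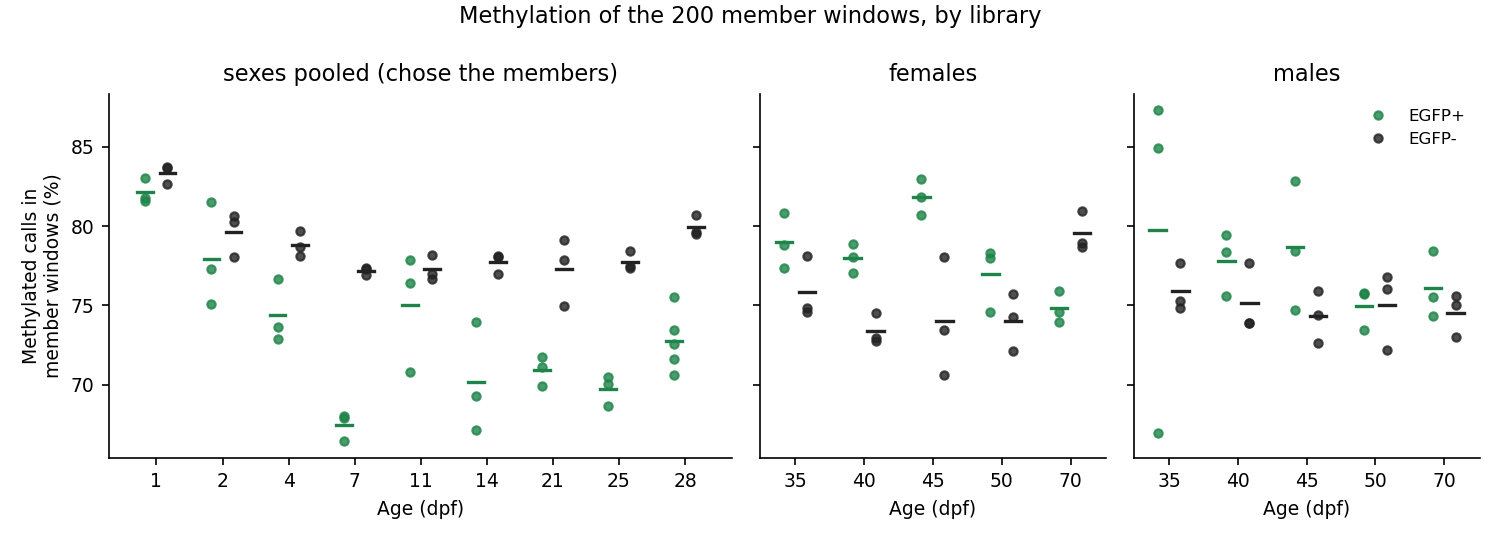
Percentage of methylated calls in the 200 member windows, with 1 point per library and a line at the group mean, for EGFP+ (green) and EGFP- (black) cells by age; the axis does not start at 0. In females EGFP+ means lie above EGFP- means from 35 to 50 dpf and below at 70 dpf (74.8% against 79.5%), and 1 EGFP+ library of males at 35 dpf lies at 67.0%.

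Window by window, the early order was not seen again at 35 to 70 dpf. The merged values of these ages were also weighted unevenly over ages. In females of 70 dpf, where EGFP+ was the lower, EGFP- libraries held 33649, 103449 and 27908 calls. The EGFP+ libraries of that age and sex held 42942, 21379 and 12399. Merged late differences of females therefore mix the kind of cell with age. In females of 35 to 70 dpf, 72 of 199 member windows with enough calls had a merged difference below 0, or 36.2%, against 36% of all 1342 windows. In males, 81 of 199 member windows did, or 40.7%, against 33.9% of all 1344 windows. With both sexes merged the count was 58 of 200, or 29.0%, against 27.6%. Windows below 0 in females and in males numbered 31 of 198 members, or 15.7%, against 12.3% of 1338. Across all 1350 windows, which share the same libraries within each set, the difference at 1 to 28 dpf had a Spearman correlation of -0.023 with that of females and 0.046 with that of males, and the differences of females and of males had one of -0.012. The level itself was more stable, with a Spearman correlation of 0.680 between the EGFP- percentages of 1 to 28 dpf and of 35 to 70 dpf. As at 1 to 28 dpf, the differences at 35 to 70 dpf had an SD near their counting error, 4.31 against 4.17 percentage points with both sexes merged. With spreads this near the counting error, the correlations of the differences cannot tell whether an order was kept.

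A quasi-binomial logistic model of each window over the libraries of 35 to 70 dpf called no member window, and no window of the genome, at an adjusted p under 0.05, in females, in males or in both sexes. At an unadjusted p under 0.05, 13 of 200 members were higher and 1 was lower in EGFP+ with both sexes, against 10.3% of all 1350 windows higher and 0.667% lower. In females, 10 of 199 were higher and 4 lower (background 7.82% and 1.64%), and in males 14 were higher and 1 lower (background 8.85% and 0.893%). The member window with the smallest p in the lower direction, chosen after its values were seen, was the last window of chromosome 3 (chr3:62000001-62383026). It held 61.2% methylated calls in EGFP+ and 76.5% in EGFP- libraries of both sexes (quasi-binomial F test, adjusted p = 0.261). In the other direction, chr20:37000001-38000000 held 79.8% in EGFP+ and 64.6% in EGFP- (quasi-binomial F test, adjusted p = 0.0852). Without 70 dpf, 18 windows were called, all higher in EGFP+, and 2 of 200 members (1.0%) were among them, against 1.33% of all windows. The model called too many windows on simulated data, which did not keep the calls of a read together, so these calls need caution. The members were chr20:37000001-38000000 with 82.4% in EGFP+ and 61.4% in EGFP-, and chr25:21000001-22000000 with 80.2% in EGFP+ and 67.6% in EGFP- (quasi-binomial F test, adjusted p = 0.0304 and 0.0397).

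The 10 lowest members varied in sign and size at 35 to 70 dpf, where single windows had counting errors of several percentage points. The lowest, the last window of chromosome 8 (chr8:54000001-54191500), held 62.0% of 297 EGFP+ calls and 76.6% of 334 EGFP- calls at 1 to 28 dpf, a difference of -14.7 percentage points with a counting error of 12.1. It was again lower in EGFP+ later, by 66.2% against 79.6% in females and 71.0% against 75.2% in males, on 145 to 162 calls a group, and both differences were within their counting errors of 13.6 and 13.1 percentage points. In libraries of females with at least 10 calls there it ran from 41.9% to 100% in 5 EGFP+ libraries, against 64.3% to 95.5% in 6 EGFP- libraries, so the libraries overlapped.

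The next, chr14:3000001-4000000, differed by -14.7 percentage points early and by -0.476 in females and -2.37 in males later. For chr6:40000001-41000000 the early difference was -14.6, and the later ones were 8.61 in females and -6.50 in males, of opposite sign. The window chr8:31000001-32000000 gave -14.5, then 6.39 in females and -3.43 in males. For chr10:6000001-7000000 the values were -13.7, 0.169 in females and -0.280 in males, with counting errors of 5.51 early, 5.05 in females and 4.70 in males.

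The window chr3:23000001-24000000 was the least methylated of the 10 in both kinds of cell. It held 45.1% in EGFP+ and 58.1% in EGFP- at 1 to 28 dpf, 56.3% and 50.6% in females later, and 55.6% and 47.9% in males. Its EGFP+ libraries with at least 10 calls ran from 25.6% to 100% in females, against 11.8% to 76.9% in EGFP- libraries. The remaining 4 had early differences of -12.4 (chr15:1000001-2000000), -11.9 (chr16:42000001-43000000), -11.9 (chr14:16000001-17000000) and -11.7 (chr8:23000001-24000000). In females these 4 gave -2.47, 4.54, -8.77 and -6.98 in that order, and in males -1.71, 11.1, 13.7 and -5.50. So 4 of the 10 were below 0 in both sexes later, against 15.7% of 198 members and 12.3% of all windows. They were chr8:54000001-54191500, chr14:3000001-4000000, chr15:1000001-2000000 and chr8:23000001-24000000. Each of their late differences was within its counting error, and being below 0 early was fixed by the choice. The smallest adjusted p of the 10 in either sex was 0.554 (quasi-binomial F test).

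Member windows lay on all 25 chromosomes. Chromosome 24 had most, with 14 of its 43 windows or 32.6%, against 14.8% of all windows, and by share chromosomes 19 (11 of 49, 22.4%), 8 (12 of 55, 21.8%) and 3 (12 of 63, 19.0%) came next. Fewest by count were on chromosomes 16 and 25, with 4 of 56 and 4 of 37. By share, chromosomes 16 (7.14%), 7 (6 of 74, 8.11%) and 4 (9.21%) were lowest, and chromosome 25 had 10.8%. The median window of chromosome 24 was at -0.974 percentage points at 1 to 28 dpf, below 0 on this chromosome only. That difference chose the members, so the low median adds nothing to their count on chromosome 24. Later its median window was at 3.17 in females and 0.645 in males, and its members were at 1.82 in females and -1.30 in males. Chromosome 4, whose long arm is rich in repeats and late replicating, held 7 of 76. From 30 Mb onward, taken as the long arm, it held 2 of 46, and the rest of the chromosome held 5 of 30. These are counts of windows chosen by a measured value, and no test was made of them.

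**Figure D4:**
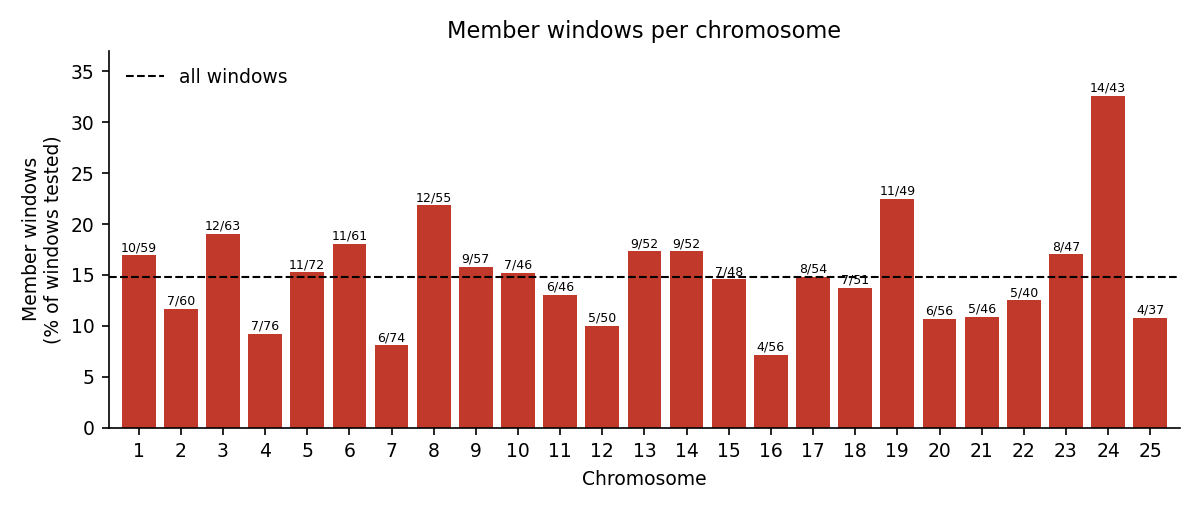
Member windows as a percentage of the windows with enough calls on each chromosome, with the counts above the bars and the percentage over all chromosomes (14.8%) as a dashed line. Chromosome 24 stands highest with 32.6% and chromosome 16 lowest with 7.14%.

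The adjacency of members was counted without a comparison to random placement, so the counts do not show whether members were scattered or grouped. Of the 200, 126 had no member as a neighbour, and 74 fell into 34 stretches, 29 of them of 2 windows, 4 of 3 and 1 of 4. The stretch of 4 (chr6:10000001-14000000) held 75.3% in EGFP+ and 79.2% in EGFP- early, then 80.9% and 75.8% in females and 79.1% and 79.7% in males. The stretch chr14:2000001-5000000 held 61.7% in EGFP+ and 70.8% in EGFP- early, then 70.8% and 73.0% in females and 67.9% and 64.7% in males. The stretch chr12:1000001-4000000 held 75.1% in EGFP+ and 83.1% in EGFP- early, then 78.4% and 79.3% in females and 83.1% and 75.8% in males. In each of the 3 the sign differed between the sexes at 35 to 70 dpf.

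Members are set beside the rest here in properties that did not themselves rank the windows. Only the share of calls was tested. Their median distance to a chromosome end was 14.0 Mb, against 13.4 Mb in other windows, and 14 of them (7.0%) lay within 2 Mb of an end, against 97 of 1150 (8.43%). The last windows of chromosomes made up 6 of the 200 members (3.0%) and 17 of the 1150 other windows (1.48%). Among the 200 windows with the highest early difference they made up 5 (2.5%), so this was not particular to members. The mean number of calls per read of a window had a median of 3.22 over member windows, against 3.28 over other windows. All libraries together gave a median of 2394 calls per member window, against 2463.5. In the merged EGFP- libraries of 35 to 70 dpf the median member window was 76.0% methylated, against 77.2% in other windows, and a member exceeded 85% once, against 77 times in other windows (0.5% and 6.70%). The 200 windows with the highest early difference also had a median of 76.0%, and 9 of them (4.5%) exceeded 85%. This level is not separate from the choice, since the early EGFP- level entered the rule and had a Spearman correlation of 0.680 with it. The early EGFP- level was however higher in members, with a median of 79.1% against 77.7% in other windows. The lower late level of members therefore does not follow from this correlation, and its cause was not tested. The share of a library's calls that fell in member windows was 14.6% ± 0.600 in EGFP+ and 14.5% ± 0.451 in EGFP- libraries of females, a difference of 0.155 percentage points with an interval of -0.227 to 0.534 (SD, n = 15 each; permutation test, p = 0.407, adjusted p = 0.570). In males it was 14.4% ± 0.668 and 14.3% ± 0.427, a difference of 0.124 with an interval of -0.313 to 0.565 (permutation test, p = 0.578, adjusted p = 0.674).

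The 200 windows at the opposite end, with early differences of 6.30 to 21.4 percentage points and a median of 8.56, had late differences with medians of 1.84 in females and 3.30 in males, against 2.19 in females and 1.65 in males for member windows; these gaps were not tested. As sets within libraries they differed by 2.25 percentage points in females and 3.92 in males between EGFP+ and EGFP- cells, against 2.74 and 2.45 in member windows.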

How the data were processed

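Cells were sorted by EGFP and libraries made by post-bisulfite adaptor tagging. The authors trimmed reads with Trim Galore, mapped them with Bismark 0.19.0 (build GRCz10 in the submitters' processing notes, another build in the methods of the study) and deposited 1 file per library with 1 line per CG call, neither normalized nor pooled; all percentages were computed here from these calls. Reads repeated by PCR were kept in the main values. Ages follow the titles, which differ from the day field in 6 libraries.

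Calls were counted in windows of 1 Mb with Python 3.11.15, numpy 2.4.6 and pandas 2.3.3. Windows of 35 to 70 dpf were tested with a quasi-binomial logistic model with age, or age and sex, as a factor (F test, R 4.3.3), at 100 or more calls in each merged group, with Benjamini-Hochberg adjustment over all windows and a threshold of 0.05. Values of whole libraries were tested by two-sided permutation of labels within ages (100000 resamples), with 95% intervals from inverting the test, and adjusted over 7 tests. The procedures were tested on simulated data, where the window model called more unchanged windows than its threshold allows. Calls of a read were not kept together there, so this rate need not hold for the data, and window calls need caution. The member windows, lists and tests were chosen with earlier results of these data known.

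Regions named are the 10 lowest members, 3 windows on either side of the limit, the 3 longest stretches, members called at 35 to 70 dpf (there were 0) and the chromosomes with most and fewest members, with chromosome 4 always given. Other windows named were chosen after their values were seen. The names of the reads gave the sequencing run. Alternatives covered the choice of members, the unit of counting, ages, runs, replicates and a replicate block. Replicate letters recur in all groups, but the labels do not say that they pair samples. The labels call fish of 35 to 70 dpf single individuals, and p-values measure the spread between these libraries.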

Additional observations from a re-analysis of the deposited data

Results flagged for a closer look

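The difference between EGFP+ and EGFP- cells in member windows of females changed between ages. From 35-50 dpf to 70 dpf it changed by -9.33 percentage points (-4.72 at 70 dpf, against 4.61 over 35 to 50 dpf), on 3 libraries of each kind of cell at 70 dpf and 12 at 35 to 50 dpf. The test was chosen after the values were seen (exact permutation test, p = 3.38e-05, adjusted p = 0.000203 over 6 such tests). Other windows changed by -6.97 percentage points in the same libraries, and member minus other windows by -2.36 (exact permutation test, adjusted p = 0.187). Most libraries of 35 to 50 dpf were on other sequencing runs than those of 70 dpf, so age and run cannot be told apart.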

How the results depend on the processing

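Alternatives were judged by unadjusted p under 0.05. In females, member windows differed by 2.74 percentage points between EGFP+ and EGFP- cells also with the replicate block, but with p = 0.0541 (exact sign exchange). In males the difference of 2.45 passed at 2.86 with 400 windows, 3.23 as an unweighted mean over windows, 3.98 with each read counted once and 4.83 within sequencing runs. Member minus other windows in females passed at 0.995 percentage points (permutation test, p = 0.0435) when libraries of 2 dpf were kept out of the choice, an alternative chosen after seeing the data, as were ranking by counting error and leaving out EGFP+ replicate C of males at 35 dpf. Leaving out replicates gave 2.37 to 3.43 for member windows in females, 1.35 to 4.06 in males, -0.175 to 0.569 for member minus other windows in females, -1.39 to -0.305 in males, -0.0464 to 0.310 and -0.0113 to 0.239 for the share of calls in females and males, 0.262 to 1.96 for the sex difference, and 0 to 1 windows called with both sexes. The difference in member windows of females no longer passed without replicate A (2.42, permutation test, p = 0.0959) or C (2.37, permutation test, p = 0.0723), and that of males passed without replicate C (4.06, permutation test, p = 0.0139). Leaving out replicate C and keeping within sequencing runs both dropped EGFP+ replicate C of males at 35 dpf. The sign of member minus other windows in females turned without replicate C, and the share of calls turned without replicate C in females and without replicate B in males. Windows called with both sexes numbered 1 with the replicate block and 18 without 70 dpf, and in females 4 without 70 dpf and 1 with reads as the unit. The causes were not tested. Same-letter libraries did not deviate together (Pearson correlations of -0.542 in females and -0.273 in males for member windows), so the letters were not used as pairs, and the replicate block changed no other call. Of the 200 members, 189 were also taken at a minimum of 300 calls, 155 when ranked within ages, 142 without 2 dpf and 196 without repeated reads. Depth limits single windows: a difference in a merged window had a median counting error of 4.72 percentage points at 1 to 28 dpf.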
